A study of Mus musculus with 4 samples.

Results

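Type I interferon-stimulated genes were examined in mouse T cells grown with either Tc1 or Tc9 cytokines. The members were 10 genes taken by name, as genes known mainly from the type I interferon response: Ifit1, Ifit2, Ifit3, Isg15, Isg20, Usp18, Rsad2, Mx1, Oas1b and Oasl2. All 10 were found among 19505 genes with a named probe set on the Affymetrix array, each by 1 probe set. RNA from 2 Tc1 and 2 Tc9 samples was hybridised, and the stated question was how the cell types differ in gene expression. A Tc1 cell is a CD8 T cell that secretes interferon gamma, and a Tc9 cell is a CD8 T cell that secretes interleukin 9. The cytokines and culture times used, the strain and the tissue of origin were not stated in the labels. The labels do not say whether arrays of a group came from separate cultures or animals, so p-values measure only the spread between these samples, which may be technical.

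Type I interferons, the alpha and beta interferons, bind the receptor pair IFNAR1 and IFNAR2 and activate the kinases JAK1 and TYK2. These phosphorylate STAT2, which acts with IRF9 in a complex that binds the interferon-stimulated response element in the promoters of antiviral genes. Interferon gamma, the product of Tc1 cells, has its own receptor and induces the transcription factor IRF1, and the target genes of both routes overlap in part.

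The letters of that element are shown for members whose promoter window holds them, since the values below are given beside them. The core was searched as GAAANNGAAA on one strand and TTTCNNTTTC on the other, where overlapping matches count separately. RefSeq windows running from 250 bases before to 50 bases after a transcript start (build GRCm38.p6) were found for 7 members and not used for Usp18, Mx1 and Oas1b. In 4 of the 7, Ifit1, Ifit3, Isg15 and Rsad2, the core was present, against 3.94% of the 15691 tested genes with a window and 3.44% of all 32851 windows. Ifit2, Isg20 and Oasl2 did not have these letters in their windows. In related lists the core was in 7 of 12 windows of the members' paralogs (58.3%), in 9 of 15 of the type I interferon genes (60%) and in 9 of 18 of genes led by interferon gamma (50%). The gamma-activated site, searched as TTCNNNGAA, which reads the same on both strands, was in the windows of 2 of the 7 members (Ifit2 and Isg20), of 9.02% of tested genes and of 8.30% of all windows. Capitals mark the core matches, and each stretch is written 5′ to 3′ on the strand of its gene. The Isg15 stretch is chr4:156200849-156200948 (minus strand), with 3 overlapping matches between 78 and 57 bases before the start. The Ifit1 stretch is chr19:34640759-34640858 (plus strand). The Rsad2 stretch is chr12:26456483-26456582 (minus strand). The Ifit3 sites are chr19:34583363-34583392 and chr19:34583397-34583426 (plus strand).
Isg15: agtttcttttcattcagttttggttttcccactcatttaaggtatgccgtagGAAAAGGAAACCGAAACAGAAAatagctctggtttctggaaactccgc
Ifit1: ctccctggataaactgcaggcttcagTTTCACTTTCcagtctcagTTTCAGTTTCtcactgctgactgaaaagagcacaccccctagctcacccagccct
Rsad2: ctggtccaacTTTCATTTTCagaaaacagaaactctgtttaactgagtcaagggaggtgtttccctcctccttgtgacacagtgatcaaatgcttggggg
Ifit3, site 1: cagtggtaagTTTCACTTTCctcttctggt
Ifit3, site 2: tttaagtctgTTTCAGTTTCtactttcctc

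The arrays numbered 1 and 2 differed as pairs. The median deposited intensity was 37.1 to 37.9 on the arrays numbered 1 and 57.1 to 57.3 on those numbered 2, and values were written with a median of 10 and 7 digits. Each pair holds a Tc1 and a Tc9 array, so the change of each of the 10 genes is also given within the pairs, and the fit with the number as a block is given where it changes a call. The block fit uses a spread shared by genes of like intensity. Its p-values, however small, do not measure how far a gene's own pairs differ. The CD8 T cell markers Cd8a, Cd8b1, Cd3e, Cd3d and Cd3g lay above the 95th percentile of 5222 negative control probe sets on every array, and Cd4 on none. Limma called 0 of the CD8 markers without the block, with log2 changes from -0.27 (Cd8b1) to 0.54 (Cd3d). With the block Cd3d, Cd3e and Cd3g were called higher and Cd8b1 lower. Of the other cell type lists, 3 of 3 measured CD4 T cell, 8 of 8 myeloid, 3 of 3 NK cell and 3 of 4 B cell markers were above that percentile on no array. The B cell marker Cd79b was above it on 1, the Tc9 array numbered 2 (0.48; called only with the block, limma adjusted p = 0.0231). Of 6 measured markers of plasmacytoid dendritic cells, which make much type I interferon, 3 were above it on every array (Ccr9, Tcf4 and Irf8, which T cells can also express) and Siglech on none. Their summed normalized intensity was 2957 and 2351 in Tc1 and 2459 and 1916 in Tc9, and Ccr9 was called higher in Tc9 (limma adjusted p = 0.0123). Irf8, which is also an interferon-induced factor, was lower in Tc9 like the 10 genes. It measured 2367 and 1832 in Tc1 and 1458 and 927 in Tc9, with no overlap (-0.83; limma adjusted p = 0.375, with the block 1.24e-36). Tcf4 measured 208 and 215 in Tc1 and 186 and 172 in Tc9, also with no overlap (-0.22; limma adjusted p = 1.00, with the block 0.338). The part of these markers in the results was not tested.

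All 10 genes had a lower signal in Tc9 than in Tc1 cells within both pairs, with log2 changes from -1.09 to -0.12. Yet 0 of 10 passed the gene test (limma, Benjamini-Hochberg adjusted p under 0.05 over all genes). At an unadjusted p under 0.05, 4 of the 10 were lower. The test called 0.564% of all genes, 0.179% as lower in Tc9, and 2.34% of all genes were lower at the unadjusted threshold. A signal lower in Tc9 in both pairs was found for 32.0% of all genes, for 27.1% of genes that never exceeded the 95th percentile of the negative controls and for 40.2% of genes above it on 2 or more arrays. Both Tc9 arrays lay below both Tc1 arrays for 8 of the 10, Mx1 and Oasl2 being the exceptions, against 15.1% of all genes. The median log2 change of the 10 was -0.35, with -0.42 and -0.33 in the pairs numbered 1 and 2, beside -0.0027 over all genes. The share of all genes with a lower log2 change was 0.297% for Ifit1, 0.887% for Isg15, 1.44% for Ifit3 and 1.56% for Usp18. It was 4.96% for Rsad2, 5.40% for Oasl2, 5.54% for Oas1b, 8.89% for Ifit2, 23.0% for Isg20 and 24.9% for Mx1. Log2 changes are Tc9 minus Tc1 of log2(quantile normalized intensity + 16), which understates the change of dim genes. In bulk RNA, fewer responding cells and less transcript per cell cannot be told apart.

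Most of the 10 were dim, which limits how far their size of change can be read. On all 4 arrays Usp18 and Isg20 lay above the negative control percentile, and on 3 Oas1b did, while the other 7 lay above it on none. In deposited intensity that percentile was 131 and 218 for Tc1 and 123 and 197 for Tc9, in the order of the array numbers. For the 7 the log2 change is given as measured, with no fold read from it.

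**Figure D1:**
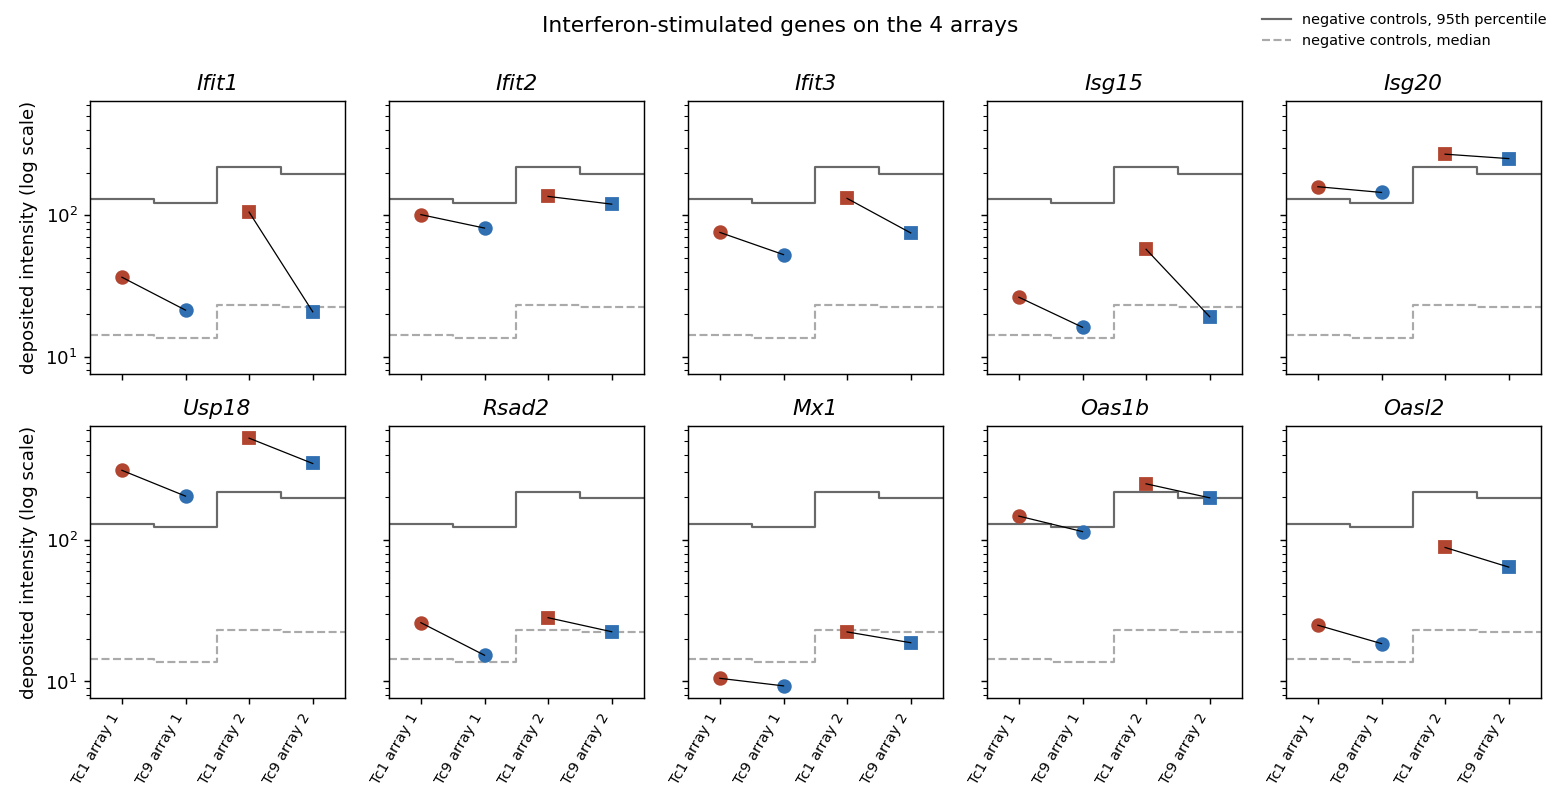
Deposited intensity (log axis) of each of the 10 genes on the 4 arrays, Tc1 in red and Tc9 in blue, circles for arrays numbered 1 and squares for those numbered 2, with thin lines joining the pairs. The solid and dashed steps are the 95th percentile and the median of the negative controls on each array, and Usp18 and Isg20 lie above the solid step on all 4 arrays.

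Usp18, a protease that removes ISG15 from proteins and also damps signalling at the type I interferon receptor, was the member measured most clearly. Its normalized intensity was 435 and 406 in Tc1 and 286 and 268 in Tc9, arrays numbered 1 and 2 in that order here and below. The groups did not overlap, and the log2 change was -0.58 ± 0.17 (SE; 95% interval -0.97 to -0.18; limma adjusted p = 0.454). It was -0.58 and -0.57 within the pairs, and with the block the adjusted p was 2.76e-06.

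Isg15, the ubiquitin-like protein that is attached to other proteins during the interferon response, measured 32.7 and 48.1 in Tc1 and 18.7 and 16.7 in Tc9. Both Tc9 values were below both Tc1 values, but all 4 arrays lay within the negative controls, between their percentiles 44.8 and 77.4. The log2 change was -0.73 ± 0.20 (SE; limma adjusted p = 0.357, with the block 4.83e-06), or -0.49 and -0.97 in the pairs. The remaining genes of ISG15 attachment had mixed values. Ube2l6, the conjugating enzyme, measured 333 and 154 in Tc1 and 111 and 66.6 in Tc9 (-1.25; limma adjusted p = 0.503, with the block 2.56e-15). Herc6, the ligase of mouse cells, went from 235 and 201 to 135 and 161 (-0.51; adjusted p = 0.929, with the block 0.00220). Uba7, the activating enzyme, measured 225 and 191 in Tc1 and 234 and 200 in Tc9, and its groups overlapped.

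The Ifit genes encode tetratricopeptide repeat proteins that bind foreign RNA and block its translation. Ifit1 measured 46.5 and 85.7 in Tc1 and 25.2 and 18.0 in Tc9. Its log2 change was -1.09 ± 0.28 (SE; 95% interval -1.76 to -0.42; limma adjusted p = 0.315, with the block 2.83e-10). The difference was -0.60 in the pair numbered 1 and -1.58 in that numbered 2, and without the Tc1 array numbered 1 it was -1.44 (limma adjusted p = 0.00628), a fit with 1 Tc1 array that is assumed to vary like the 2 Tc9 arrays. That was the only such call for a member with an array left out, and it rests on values within the negative controls. Ifit3 was even within its groups, at 103 and 106 in Tc1 and 66.3 and 61.4 in Tc9 (-0.59 ± 0.23, SE; pairs -0.53 and -0.65; adjusted p = 0.843, with the block 0.00497). Ifit2 measured 141 and 109 in Tc1 and 107 and 95.02 in Tc9, so the groups nearly touched, and its change was -0.26 ± 0.24 (SE; 95% interval -0.84 to 0.31), or -0.35 and -0.17 in the pairs. On every array Ifit1, Ifit2 and Ifit3 lay between percentiles 47.6 and 93.5 of the negative controls.

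Rsad2, which encodes viperin, the enzyme that makes a chain-terminating antiviral nucleotide, measured 32.3 and 24.3 in Tc1 and 17.7 and 19.4 in Tc9. The groups did not overlap, at a level between percentiles 50.2 and 70.0 of the negative controls. Its change was -0.35 ± 0.17 (SE; limma adjusted p = 1.00, with the block 0.0446), or -0.52 and -0.19 in the pairs. Isg20, an exonuclease that degrades single-stranded RNA, measured 222 and 212 in Tc1 and 198 and 196 in Tc9. The groups did not overlap, yet the difference of -0.13 ± 0.19 (SE; 95% interval -0.58 to 0.32) was smaller than its error, and it was -0.15 and -0.11 in the pairs.

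Oas1b and Oasl2 belong to the oligoadenylate synthetase family, whose active members answer double-stranded RNA and switch on RNase L. Oas1b measured 205 and 196 in Tc1 and 156 and 155 in Tc9, with no overlap and a change of -0.34 ± 0.20 (SE; 95% interval -0.81 to 0.14; pairs -0.36 and -0.31). Oasl2 measured 31.0 and 72.2 in Tc1 and 21.6 and 52.9 in Tc9, so the pairs differed more than the cell types (-0.34 ± 0.39, SE; pairs -0.32 and -0.36). Mx1, a dynamin-like GTPase that blocks influenza virus, measured 12.3 and 19.5 in Tc1 and 10.4 and 16.4 in Tc9, under the negative control median of each array, with changes of -0.098 and -0.13 in the pairs. Many laboratory strains carry defective alleles of both, and RefSeq lists Oas1b and Mx1 as transcribed pseudogenes in C57BL/6J. Without the Tc1 array numbered 2, the changes of Mx1 and Oasl2 turned to 0.049 and 0.11, and without the Tc9 array numbered 1 to 0.032 and 0.097.

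With the replicate number as a block, 5 of the 10 were called lower in Tc9 (Ifit1, Ifit3, Isg15, Usp18 and Rsad2) and 0 higher. That fit takes its spread from genes of like intensity and not from each gene's own arrays. It called 13.7% of all genes, 7.37% as lower, and 1.97% as lower among genes above the negative control percentile on no array. Of the 5, Ifit1, Ifit3, Isg15 and Rsad2 have the response element core in their window and Usp18 had no window in the table used. Of the 9 type I interferon genes that have it, 0 were called with the block. All 9 lay above the negative control percentile on no array, as did Ifit1, Ifit3, Isg15 and Rsad2, so a lack of expression limits what this 0 can show. Of all 618 tested genes that have the core 12.6% were lower with the block, against 7.36% of those without. Among genes led by interferon gamma (9 of 18 with the core), 88.9% of those with the core and 88.9% of those without it were lower with the block. Without the block limma called 66.7% and 11.1% of them lower, against 1.62% and 0.126% over all tested genes. With the block the shares were 57.1% and 0% of the paralogs, where 7 of 12 genes with a window had the core. They were 60% and 45.8% of the other interferon-stimulated genes (10 of 34 with the core). For genes that sense nucleic acids or switch on interferon genes (3 of 13) they were 66.7% and 10%. Both were 0% for the receptor and transducer genes (1 of 6) and for the negative regulators (2 of 9). Genes without a window are left out, and most of these shares rest on few genes. The part of the core in these calls was not tested.

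The same contrast in the negative controls gives a scale for the differences of dim genes. The controls had a median deposited intensity of 13.6 to 23.0 per array, against 204 to 523 for Usp18. How far their spread applies to brighter genes such as Usp18, Isg20 and Oas1b was not tested. Over the 5222 negative control probe sets the median log2 change of deposited intensity was -0.0056 in the pair numbered 1 and -0.022 in that numbered 2. Their 5th to 95th percentile ran from -0.54 to 0.43 and from -0.56 to 0.45. In the pair numbered 1, Usp18 alone of the 10 lay below that range, at -0.57. In the pair numbered 2, Ifit1 (-1.72), Isg15 (-1.06), Ifit3 (-0.70) and Usp18 (-0.57) lay below it. Against the wider 2.5th percentile of the negative controls, -0.69 and -0.68, 0 members lay below in the pair numbered 1 and 3 (Ifit1, Isg15 and Ifit3) in that numbered 2, so Usp18 lay within it in both pairs. Of the negative controls 28.9% were lower in Tc9 in both pairs.

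**Figure D2:**
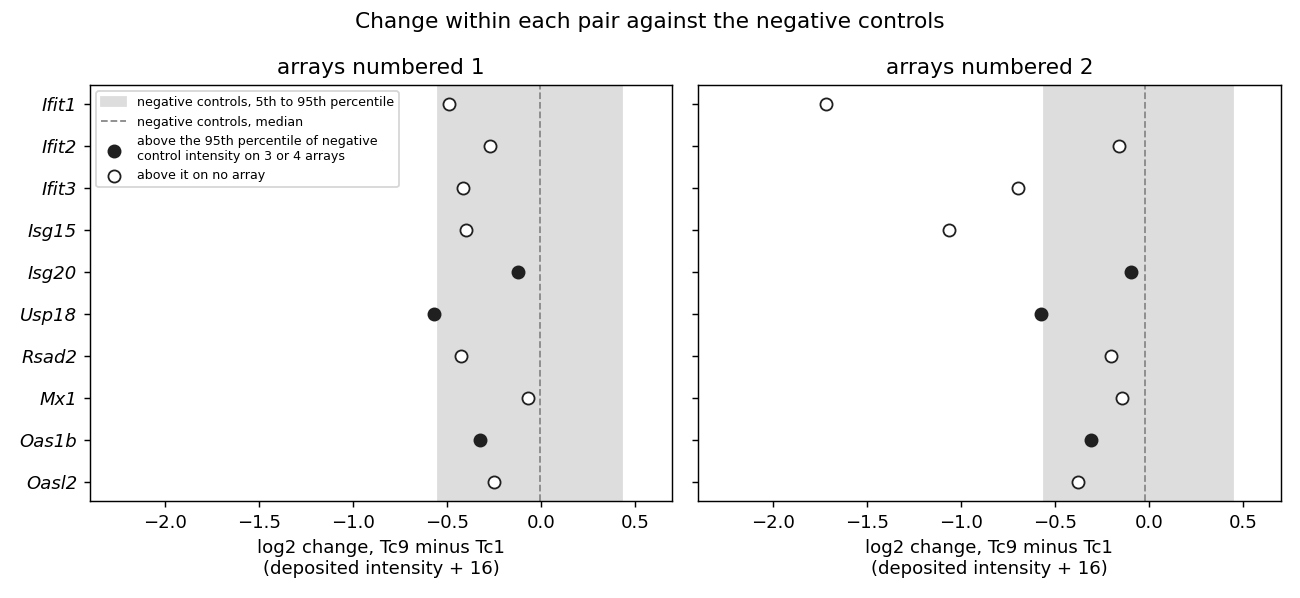
Log2 change of deposited intensity + 16 (Tc9 minus Tc1) for each of the 10 genes, in the pair numbered 1 (left) and 2 (right). The grey band spans the 5th to 95th percentile of the negative controls and filled points are genes above the 95th percentile of negative control intensity on 3 or 4 arrays. All points lie left of 0, and Usp18 lies just left of the band in both pairs, though within the 2.5th percentile of the negative controls (-0.69 and -0.68, not drawn).

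Upstream of these genes, 0 of the interferon, receptor and transducer genes passed the limma test, and 0 had an unadjusted p under 0.05. Over all 19505 genes limma called 0.564%, and 574 were higher and 456 lower before adjustment. A count of 0 in lists this short is near those shares and does not show that these genes were unchanged. None of 16 type I interferon genes exceeded the negative control percentile on any array, and their median log2 change was -0.021. Ifnb1, the beta interferon gene, measured 30.1 and 28.5 in Tc1 and 25.2 and 41.0 in Tc9. Of the alpha genes, the brightest probe sets were those of Ifna5, Ifna1, Ifna7 and Ifna2, with log2 changes between -0.22 and -0.041. The receptor chain Ifnar1 measured 414 and 393 in Tc1 and 381 and 371 in Tc9. Ifnar2 measured 457 and 677 against 379 and 647, following the array number more than the cell type. The kinase gene Jak1 measured 820 and 493 in Tc1 and 1158 and 580 in Tc9, a change of 0.36 that overlapped between groups (limma adjusted p = 1.00, with the block 0.000242). The kinase gene Tyk2 measured 471 and 482 in Tc1 and 507 and 626 in Tc9, with no overlap (0.24; limma adjusted p = 1.00, with the block 0.0745). Stat2, at 314 and 319 against 289 and 308, and Irf9, at 405 and 283 against 358 and 253, were measured above the negative control percentile on all arrays, with changes of -0.080 and -0.16. Ifnb1, Stat2 and Irf9 were named after their values were seen.

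Of 17 genes that sense nucleic acids or switch on interferon genes, limma called 0 after adjustment and 3 as lower before it (p under 0.05). With the block 5 were lower and 2 higher. Over all 19505 genes, 456 were lower before adjustment, and with the block 1438 were lower and 1236 higher. Sting1, the adaptor of cytosolic DNA sensing, measured 1280 and 1395 in Tc1 and 1269 and 1332 in Tc9. Mavs, the adaptor of RNA sensing, measured 752 and 678 against 919 and 864 (0.31; called only with the block, limma adjusted p = 0.00128), and Irf3 had a change of 0.084. Myd88, the adaptor of Toll-like receptors, measured 1104 and 1167 in Tc1 and 993 and 938 in Tc9, with no overlap (-0.23; limma adjusted p = 1.00, with the block 0.0148). The 3 lower before adjustment, named after their values were seen, were sensors. Ifih1 encodes the RNA sensor MDA5 (-1.01; limma adjusted p = 0.314, with the block 1.08e-09), Zbp1 binds Z-form nucleic acid (-0.85; adjusted p of 0.315 and 6.47e-07), and Cgas is the cytosolic DNA sensor (-0.83; adjusted p of 0.240 and 3.33e-10).

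Among close relatives of the 10, 0 of 16 measured paralogs passed the limma test, and the median log2 change was -0.11. Before adjustment 4 were lower (p under 0.05), against 2.34% of all genes. With the block 4 were lower and 0 higher, against 7.37% of all genes lower. The 2 brightest, Isg20l2 and Aen, relatives of Isg20, were the only paralogs above the negative control percentile on all 4 arrays, and neither was called in either fit. Isg20l2 measured 520 and 662 in Tc1 and 502 and 555 in Tc9, with overlap (-0.15; limma adjusted p = 1.00, with the block 0.350). Aen measured 471 and 435 in Tc1 and 425 and 332 in Tc9, with no overlap (-0.26; limma adjusted p = 1.00, with the block 0.0707). Oas1c, at 101 and 83.9 against 70.0 and 83.5 (-0.22; adjusted p with the block 0.499), was above it on none. The 4 with the block, named after their values were seen, were 3 Ifit paralogs and Oas3. Ifit1bl1 measured 111 and 159 in Tc1 and 33.8 and 47.2 in Tc9, with no overlap (-1.41 ± 0.28, SE; limma adjusted p = 0.135, with the block 7.61e-15). Ifit3b measured 79.9 and 64.3 against 36.0 and 39.1 (-0.71; limma adjusted p = 0.590, with the block 0.000384). Ifit1bl2 had a change of -0.30 (limma adjusted p = 0.650, with the block 0.0158). Oas3 measured 29.5 and 52.8 in Tc1 and 11.5 and 25.6 in Tc9 (-0.73; limma adjusted p = 0.812, with the block 5.90e-06). All 4 were above the negative control percentile on no array. Sharing of signal between probe sets of near-identical Ifit or Oas copies was not examined.

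In a wider list of 42 other interferon-stimulated genes, limma called 0 after adjustment and 16 as lower before it (p under 0.05), and 37 had a negative log2 change, against 50.7% of all genes. The median was -0.23. Over all genes 2.34% were lower before adjustment. With the block 20 of the 42 were lower and 2 higher, against 1438 lower and 1236 higher of all 19505 genes. The signal was lower in both pairs for 27 of the 42, or 64.3%, against 32.0% of all genes. Bst2, the tetherin that holds budding virus at the cell surface, measured 2091 and 1904 in Tc1 and 1266 and 1147 in Tc9, with no overlap (-0.72 ± 0.13, SE; limma adjusted p = 0.0969, with the block 2.60e-27). Samhd1, which destroys the nucleotides used for reverse transcription, had a change of -0.23 (limma adjusted p = 1.00, with the block 0.00148). Sp100, a nuclear body protein, and Shisa5 differed in sign between the pairs, at -0.42 and 0.063 and at -0.24 and 0.036, and Sp100 was called lower with the block (adjusted p = 0.0301; 1.00 without).

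All 8 genes of these lists that passed the test were genes led by interferon gamma. The lists were chosen with earlier results of these data known, so where these 8 lie among the lists is a description, not a test. Of 22 measured genes led by interferon gamma, 8 fell and 0 rose (limma), against 0.179% of all genes called lower. Their median change was -0.72. With the block 17 fell and 1 rose, against 7.37% of all genes lower. The 1 that rose was Socs1, which is also counted among the negative regulators below. Iigp1, a GTPase that attacks the vacuoles of intracellular parasites, fell from 913 and 879 to 181 and 196 (-2.16 ± 0.16, SE; adjusted p = 0.00370). Gbp2, a guanylate-binding protein, fell from 3264 and 3412 to 789 and 754 (-2.09), Gbp3 fell by 1.93 and Gbp7 by 1.89. Among the brightest of the list, the immunoproteasome subunit Psmb8 measured 1885 and 1923 in Tc1 and 1349 and 1248 in Tc9 (-0.55; adjusted p = 0.207, with the block 4.65e-16). The peptide loading genes Tap1 and Tapbp had changes of -0.32 (limma adjusted p = 0.810, with the block 5.94e-06) and 0.098. The 10 members ranged from -1.09 to -0.12, and the difference between the lists was not tested. Signal also differs between them, since 18 of the 22 but 2 of the 10 lay above the negative control percentile on all 4 arrays, and its part in the result was not tested. The 8 calls became 0 with the values as deposited, and 4 with median centring or without the intensity trend.

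**Figure D3:**
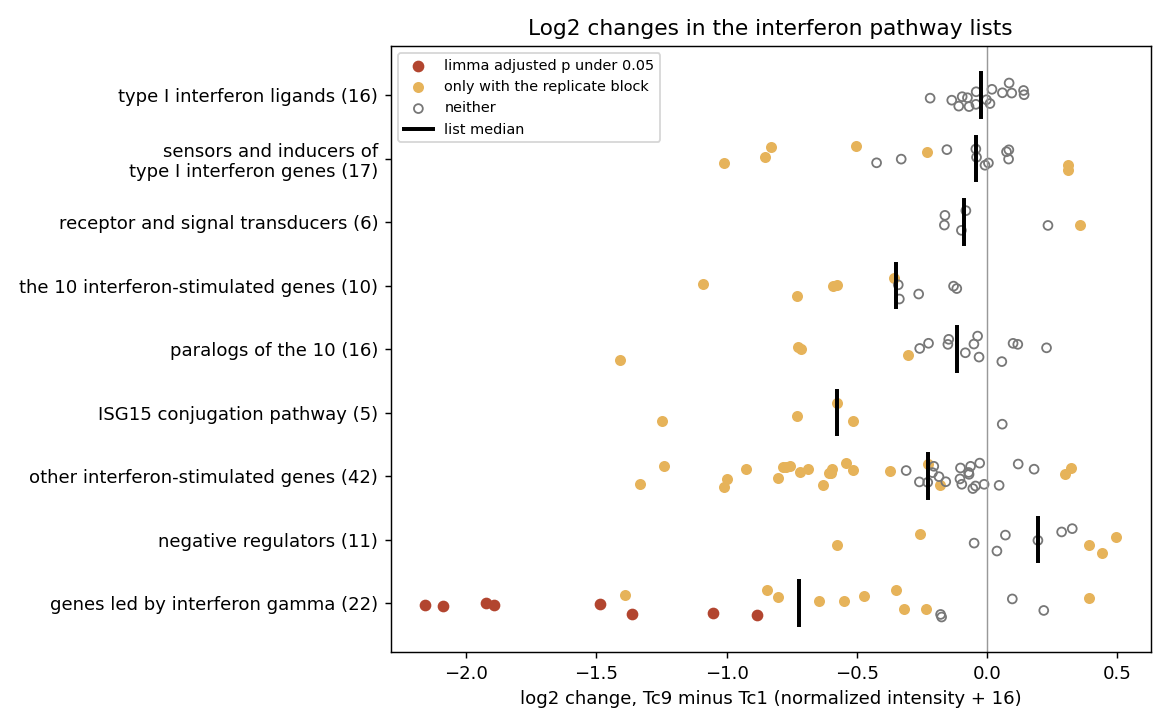
Log2 change (Tc9 minus Tc1, normalized intensity + 16) of every measured gene in each list, with the number of genes in brackets and the list median as a black bar. Red points passed limma over all genes, yellow points passed only with the replicate block, and open points neither. All 8 red points are genes led by interferon gamma, in lists chosen with earlier results of these data known.

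Of 11 negative regulators of interferon signalling, Usp18 among them, 3 had a negative and 8 a positive log2 change. The limma test called 0 after adjustment and 2 as higher and 1 as lower before it (p under 0.05), and with the block 3 were higher and 2 lower. Over all 19505 genes, 574 were higher and 456 lower before adjustment, and 1236 higher and 1438 lower with the block. Ptpn1, a phosphatase of JAK2 and TYK2, measured 1890 and 2238 in Tc1 and 2690 and 2925 in Tc9, with no overlap (0.44; limma adjusted p = 0.469, with the block 4.77e-14). Cish, an inhibitor of STAT5 signalling, measured 1202 and 1533 against 1664 and 2220 (0.50; limma adjusted p = 0.776, with the block 1.79e-13). Ptpn2, a phosphatase of JAK1, measured 1417 and 1096 against 1172 and 923 (-0.26; called only with the block, limma adjusted p = 0.00339). Ptpn6 had a change of -0.048.

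A median profile over the 4 arrays was taken from Isg20, Usp18 and Oas1b, the 3 members above the negative control percentile on 2 or more arrays. The genes nearest to this median were Myo7a, Rrp1b, Taf5l, D16Ertd472e and Pfdn4. Likeness was the root mean square difference, over 4 arrays, between a gene's mean-centred log2 values and the median of the 3 members, and was 0.0072 to 0.022 among 7323 candidates. These 5 had log2 changes of -0.38 to -0.30 (limma adjusted p of 0.819 to 1.00). That is near Oas1b (-0.34), which lies between Isg20 (-0.13) and Usp18 (-0.58), so the match is to Oas1b and not to all 3. Over 4 arrays many genes share such a shape, so the match describes these values alone.

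**Figure D4:**
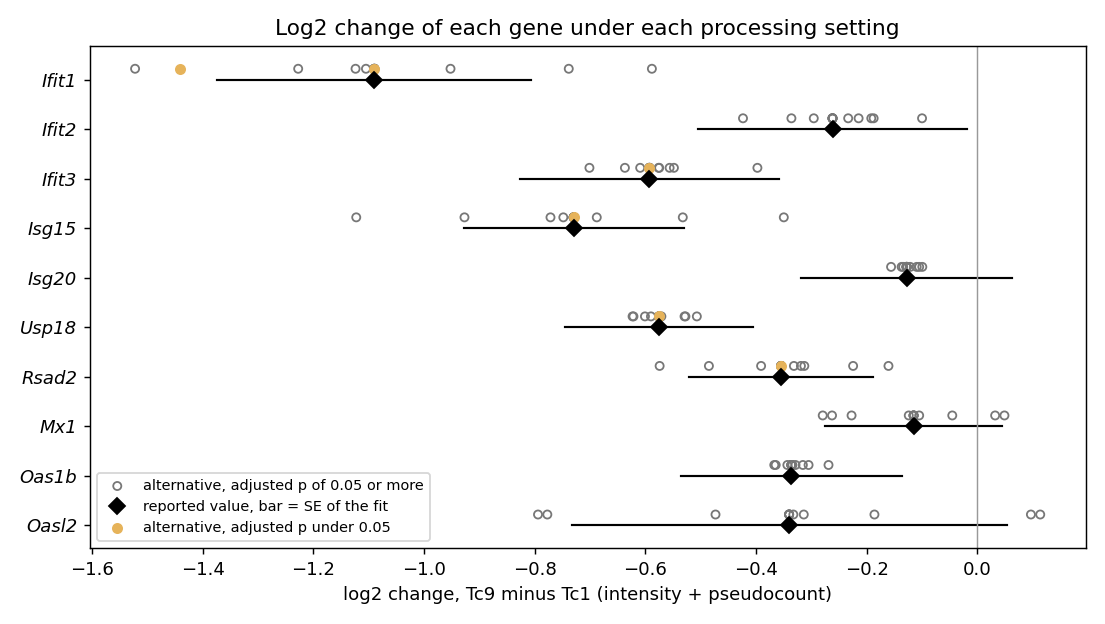
Log2 change (Tc9 minus Tc1) of each of the 10 genes as reported (diamond, bar the SE of the fit) and under each alternative processing (circles, yellow where the adjusted p was under 0.05). For 8 genes every circle lies left of 0, while Mx1 and Oasl2 each have 2 circles to the right of it.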

How the data were processed

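Biotin-labelled total RNA of 2 Tc1 and 2 Tc9 samples was measured on Affymetrix arrays, per the labels' protocols. Each array had 28846 probe sets, each with 1 intensity as deposited by the authors; the labels do not state how these were background corrected or summarized, nor with which software. Control probe sets (6640) were left out, and the 22206 others were quantile normalized across arrays and turned into log2(intensity + 16). The platform annotation named 19572 probe sets by 1 symbol, and for 55 genes with several the brightest was kept. Tc9 minus Tc1 was tested with limma 3.58.1 in R 4.3.3, using a variance trend over intensity, with Benjamini-Hochberg adjustment over 19505 genes at 0.05. The fit without the block was tried on simulated data whose arrays were independent, so those data do not show how it behaves with linked pairs. The block fit was not simulated. The fit without the block had 2 residual and 5.09 prior degrees of freedom. The replicate block left 1, with an infinite prior, so genes of like intensity got the same spread. Deviations of same-numbered arrays from their group means correlated at 0.729 over genes; with 2 pairs this gives 1 value, and the labels do not say what a number marks. An exact permutation test of 2 against 2 arrays cannot go below 0.333. The number of arrays limits the precision.

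The 10 members and all lists were chosen with earlier results of these data known. The genes named are all 10 members, and per list up to 4 past the threshold by size and the 4 with the highest mean signal; others are said to be named after their values were seen. The alternatives were the normalization, pseudocount, dim-gene filter, variance model, block, probe set rule and each array left out. Promoter letters were read from RefSeq windows.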

Additional observations from a re-analysis of the deposited data

How the results depend on the processing

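The count of members past the threshold was 0 under every alternative except the replicate block (5) and leaving out an array (0 to 1), which leaves a lone array assumed to vary like the other group. The median log2 change of the members was -0.52 with a pseudocount of 1 and -0.23 with 64, and -0.46 to -0.34 with an array left out; under the others it moved by less than the difference between pairs. Ifit1, Ifit2, Ifit3, Isg15, Isg20, Usp18, Rsad2 and Oas1b kept a negative change under every alternative run for them. With an array left out, Mx1 ran from -0.28 to 0.049 and Oasl2 from -0.79 to 0.11; the positive values were 0.049 and 0.11 without the Tc1 array numbered 2, and 0.032 and 0.097 without the Tc9 array numbered 1, and the cause was not tested. All 10 members were lower in both pairs also as deposited, with median centring and with probe sets averaged, settings added after the data were seen, while both Tc9 arrays lay below both Tc1 arrays for 4 of 10 as deposited (4.25% of all genes), where the arrays numbered 2 were brighter. Over all genes, 110 passed, and 16 as deposited, 52 with median centring, 56 without the intensity trend, 2674 with the replicate block and 186 to 274 with an array left out. By direction these were 75 higher and 35 lower, 13 and 3 as deposited, 30 and 22 centred on medians, and 1236 and 1438 with the block. Over the pathway lists 8 genes passed, and 0 as deposited, 4 with median centring, 4 without the trend, 62 with the block and 10 to 15 with an array left out. With the 90th in place of the 95th percentile of the negative controls, 4 members rather than 2 lay above it on all arrays. Signal over background is a limit: 7 members lay within the negative controls on all 4 arrays.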
